A study of Mus musculus with 12 samples.

Results

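The MHC class I (MHC-I) chains of B16F10 melanoma cells were followed at the level of RNA through 9 genes out of the 54232 in the deposited count table. They were chosen by name, by matching the Ensembl identifiers of the table to the symbols B2m, H2-K1, H2-D1, H2-Q4, H2-Q6, H2-Q7, H2-T22, H2-T23 and H2-M3, and all 9 were found once and passed the filter on low counts. B16F10 is a pigmented melanoma line of C57BL/6 mice. RNA was sequenced from 12 libraries in 4 groups of 3. WT cells were the untreated line in culture. Lyso cells were the same line after 48 h with granules, called lysosomes in the labels, which had been isolated from activated CD8+ T cells. The incubation in the study's methods is shorter than that in the labels. Relapsed denotes 3 lines, ITF1, Rel and ITM, which were grown in culture from B16F10 cells sorted out of tumors that had come back after immunotherapy, so that each line stands for 1 isolate. Tumor cells (Tumor 1, 3 and 4) were sorted from such relapsed tumors and their RNA was taken at once. The tumors were grown under the skin of mice whose labelled age is 6 weeks, and the immunotherapy joined an antibody to TRP1 with TNFα and an agonist of CD40.

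MHC-I molecules show peptides from inside the cell to CD8+ T cells and are read by inhibitory receptors of natural killer cells. A heavy chain pairs with the invariant light chain, beta-2-microglobulin, and only the loaded pair is stable at the surface. The classical heavy chains are highly polymorphic and present to most CD8+ T cells, whereas the nonclassical ones vary little and have narrower roles, and interferon gamma induces both kinds, with IRF1 and NLRC5 among the factors it acts through. B16F10 is known for a low level of MHC-I in culture that rises with interferon.

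In these data the 9 genes did not move together, and the line between them did not run between classical and nonclassical chains. The classical genes H2-K1 and H2-D1, and with them H2-Q4, H2-Q6, H2-Q7 and H2-M3, were higher in Tumor than in Lyso. Of these, H2-Q6, H2-Q7 and H2-M3 passed the filter on low counts only with their Tumor libraries. The calls of H2-Q4 and H2-M3 were lost without Tumor 4, and that of H2-Q4 also without Lyso 1. H2-T23, the gene of the chain Qa-1, was 20.2-fold higher in Lyso and 22.8-fold higher in Tumor than in WT, and its values in Lyso and Tumor overlapped. H2-T22 was the gene with the smallest difference between Tumor and WT among the 9, at 1.93-fold, and was not called in any comparison. B2m was 3.61-fold higher in Tumor than in WT and was called in no other comparison. Nonclassical genes made up 32.1% ± 2.0 (SD, n = 3) of the summed heavy chain level in Lyso and 14.3% ± 1.58 (SD, n = 3) in Tumor.

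Upstream sequence was examined for letters that interferon and NF-κB factors are known to bind, because these factors act on MHC-I genes. The windows, which RefSeq gives for GRCm38.p6, covered the 250 bases before the start site of each of the 9 genes, with 2 start sites for H2-K1. The motifs were searched on both strands. They were AANNGAAA for the core of interferon regulatory factor (IRF) sites, GGGGATTCC for NF-κB, TTCNNNGAA for the interferon gamma activated site (GAS), and CCAAT for the Y box. The IRF core was found in 9 of 9 genes against 21.3% of 32841 windows of all genes, and the Y box in 9 of 9 against 33.9%. GGGGATTCC was found in 4 of the 9 genes, H2-K1, H2-D1, H2-Q6 and H2-Q7, against 0.213% of all windows. The sequence around it was nearly the same in these 4 related genes, so their matches are not independent of each other. The comparison with all windows is therefore a description and no test of enrichment. Only this exact spelling was searched, and other forms of an NF-κB site were not counted. The GAS letters were found in H2-M3 alone of the 9, against 7.02%. The stretch of 30 bases that ends with the IRF core is shown for each gene, 5′ to 3′ on the gene's strand, because it shows which genes carry the NF-κB letters beside that core. Capitals mark the matches of any of these motifs, and TTTCACTT is an IRF core read on the other strand.
H2-K1: tGGGGATTCCccatctccacagTTTCACTT
H2-D1: tGGGGATTCCccatctcctcagTTTCACTT
H2-Q6: tGGGGATTCCccatctccccagTTTCACTT
H2-Q7: ctGGGGATTCCcatctccccagTTTCACTT
H2-Q4: tggggatttcccatctccccagTTTCACTT
H2-M3: gattcccccatttcctctgaggTTTCACTT
H2-T22: ggagagtccctaATTGGcttagTTTCACTT
H2-T23: tcatgaaaagggatcctactgcTTTCTCTT
B2m: acgggactttataagaacatgaAACTGAAA
The stretches lie at chr17:34000430-34000459 (minus strand), chr17:35262922-35262951 (plus), chr17:35424676-35424705 (plus), chr17:35439020-35439049 (plus), chr17:35379442-35379471 (plus), chr17:37270111-37270140 (plus), chr17:36042926-36042955 (minus), chr17:36032818-36032847 (minus) and chr2:122147528-122147557 (plus). H2-K1, H2-D1, H2-Q6 and H2-Q7 carried GGGGATTCC next to the IRF core. H2-Q4 had a similar stretch without the exact NF-κB letters. A gene without these letters, such as H2-Q4 or B2m, may still hold another form of an NF-κB site, which was not searched. H2-T23 had a second IRF core nearer its start site. Those of H2-D1 and H2-T23 fall in an annotated exon of a longer GENCODE transcript, so for these genes the windows are not upstream of every transcript. The whole windows are shown for H2-K1, which differed most between Tumor and WT among the genes counted in WT, for the light chain and for H2-T22, which was not called, at chr17:34000334-34000583 (minus strand), chr2:122147437-122147686 (plus) and chr17:36042743-36042992 (minus). Of their bases, 14, 1 and 5 lie in an annotated exon.
H2-K1: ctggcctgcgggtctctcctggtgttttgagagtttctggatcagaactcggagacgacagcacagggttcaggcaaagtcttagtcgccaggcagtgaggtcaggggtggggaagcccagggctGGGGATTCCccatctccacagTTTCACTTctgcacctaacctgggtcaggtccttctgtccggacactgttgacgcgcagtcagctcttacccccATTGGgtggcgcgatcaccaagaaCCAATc
B2m: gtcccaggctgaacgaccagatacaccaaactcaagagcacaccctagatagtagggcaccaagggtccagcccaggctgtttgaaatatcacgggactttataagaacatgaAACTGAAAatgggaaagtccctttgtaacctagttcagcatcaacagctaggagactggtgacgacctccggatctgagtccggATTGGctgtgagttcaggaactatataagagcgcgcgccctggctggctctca
H2-T22: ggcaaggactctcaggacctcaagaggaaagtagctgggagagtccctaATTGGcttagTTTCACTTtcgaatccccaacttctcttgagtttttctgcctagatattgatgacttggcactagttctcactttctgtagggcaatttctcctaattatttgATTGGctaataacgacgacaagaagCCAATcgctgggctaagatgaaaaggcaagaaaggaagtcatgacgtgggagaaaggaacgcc
The windows of H2-K1 and H2-T22 had Y boxes on both strands, and that of B2m had 1. A match of letters is a description of the window and does not show that a factor was bound.

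Counts on genes came to 1667398, 2350129 and 16384021 in WT 1, WT 2 and WT 3, lay between 10895611 and 16402629 in Lyso and the Relapsed lines, and between 3102442 and 5049496 in Tumor. Depth was therefore partly confounded with the group. Melanocyte markers were well above the floor in all groups, 10 of 10, with summed levels of 19784 to 28413 CPM (read counts after normalisation for library size) in WT and 20510 to 22620 CPM in Tumor. All 10 fibroblast markers were called higher in Tumor than in WT, with summed levels of 7693 to 10690 CPM in Tumor against 29.96 to 39.4 CPM in WT. Of the myeloid markers 6 of the 8 tested, and of the endothelial markers 5 of the 6 tested, were called higher as well, where 8.56% of all genes were. The endothelial marker Eng was not called, with a log2 fold change of -0.44. Eng made up most of the endothelial sum, which was 277 to 323.5 CPM in Tumor against 290.6 to 427 CPM in WT. In Lyso, 6 of 12 T-cell markers, Cd8a, Cd8b1, Gzma, Gzmb, Lck and Cd247, were above 3 counts in all libraries. Of these, Cd8a, Cd8b1 and Gzmb were called higher than in WT. Cd247 was level with WT, at means of 6.055 and 6.061 CPM, and Lck was not called, at 5.77 against 3.14 CPM. The 12 T-cell markers summed to 21.5 to 24.2 CPM in Lyso and to 5.91 to 12.4 CPM in WT. Cd3d, Cd3e, Cd8a, Cd8b1 and Gzmb were among the 10 T-cell markers at 0 in all WT libraries. RNA of host cells in Tumor and of T cells in Lyso moved with the groups in this way, and its part in the results on MHC-I was not tested.

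B2m, on chromosome 2 (122147686 to 122153083 of GRCm38), encodes the light chain on which every chain studied here depends. Its level was 336, 233 and 492 CPM in WT 1, WT 2 and WT 3, and 788.5, 697 and 735 CPM in the Lyso libraries. In Tumor 1, Tumor 3 and Tumor 4 it was 711, 1136 and 2001 CPM. All Tumor and all Lyso libraries lay above the WT libraries, while Tumor 1 fell within the range of Lyso. B2m was higher in Tumor than in WT by 1.85 ± 0.48 on the log2 scale (standard error, SE; edgeR's quasi-likelihood test with Benjamini-Hochberg adjustment, adjusted p = 0.0174), and without Tumor 4 or without WT 2 the call was lost. It was not called between Lyso and WT (1.06 ± 0.47, adjusted p = 0.253) nor between Tumor and Lyso (0.79 ± 0.47, adjusted p = 0.243), although its 3 Lyso libraries lay above all of WT. The threshold for a call was an adjusted p under 0.05 together with a log2 fold change over 1 in either direction.

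H2-K1 (chromosome 17, 33996017 to 34000347) encodes the classical heavy chain H-2K. In WT 1, WT 2 and WT 3 it stood at 32.8, 8.86 and 17.0 CPM. The Lyso libraries held 42.4, 44.1 and 44.0 CPM, and Tumor 1, Tumor 3 and Tumor 4 held 219, 372 and 725 CPM. The lowest Tumor library was thus far above the highest Lyso library, and Lyso lay just above WT. H2-K1 was higher in Tumor than in Lyso by 3.34 ± 0.69 on the log2 scale, a factor of 10.1 (edgeR, adjusted p = 0.00345), and higher than in WT by 4.56 ± 0.77 (adjusted p = 0.00129). Lyso and WT differed by 1.23 ± 0.72, which was not called (adjusted p = 0.397).

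H2-D1 (chromosome 17, 35262730 to 35267499) encodes the other classical chain of this strain, H-2D. It was the heavy chain gene with the highest level per kilobase of exon in each of the 12 libraries. It measured 125, 75.9 and 146.5 CPM in the WT libraries, 151, 146.5 and 156 CPM in Lyso, and 296, 564 and 1072 CPM in Tumor 1, Tumor 3 and Tumor 4. The lowest Lyso value was level with the highest WT value, and the Tumor values lay above both groups. Tumor exceeded Lyso by 2.09 ± 0.47 on the log2 scale (edgeR, adjusted p = 0.00631) and WT by 2.47 ± 0.49 (adjusted p = 0.00358). The difference between Lyso and WT was 0.37 ± 0.47 (adjusted p = 0.74), the smallest of the 9 genes in that comparison.

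**Figure D1:**
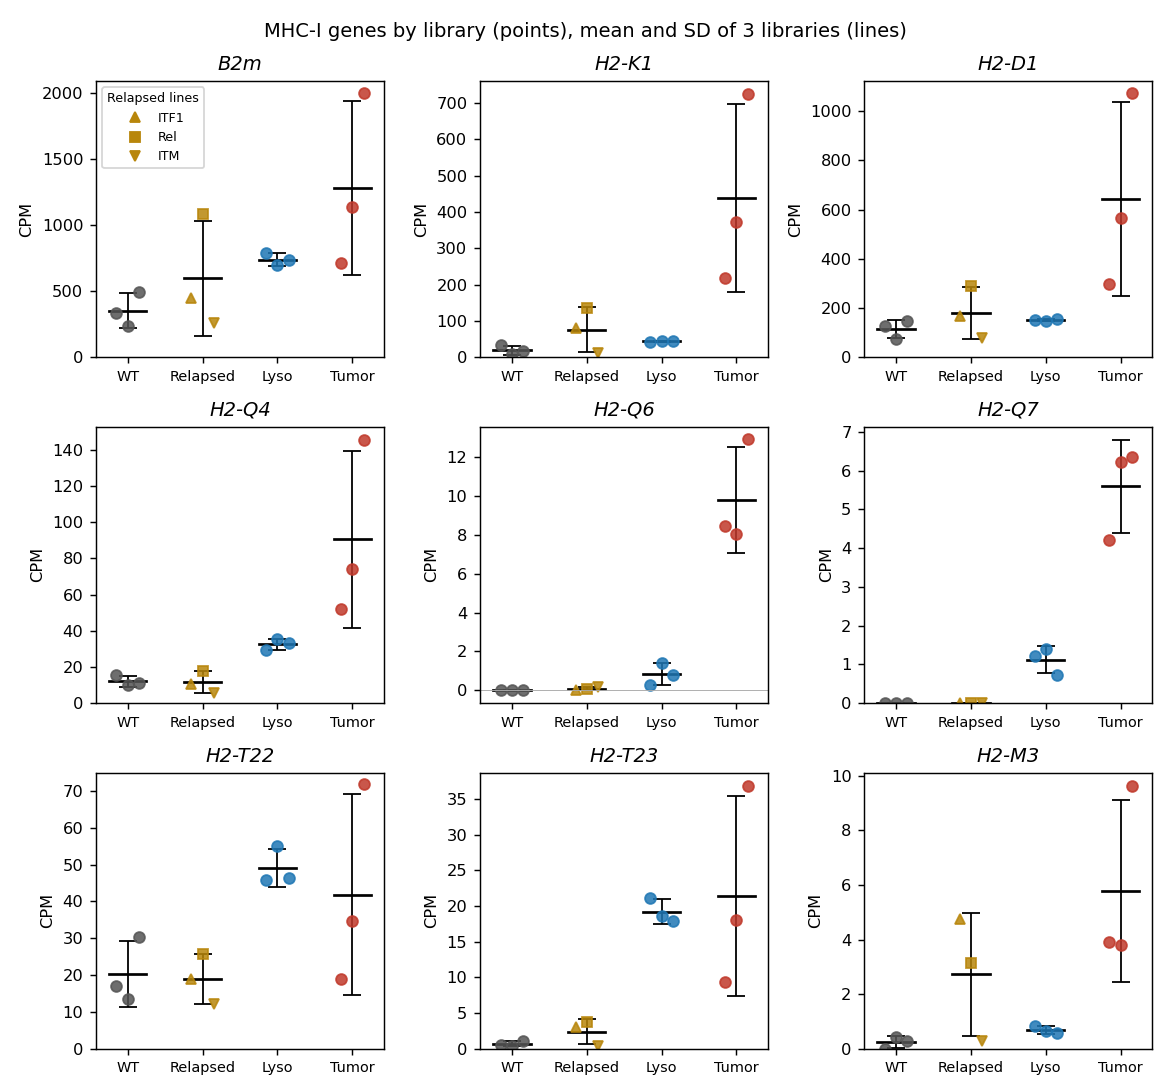
Level of the 9 MHC-I genes in CPM (linear axes) in the WT, Relapsed, Lyso and Tumor libraries; points are libraries, with their own symbols for ITF1, Rel and ITM, and lines give the mean and SD of 3. H2-K1 stays between 42.4 and 44.1 CPM in Lyso and reaches 219 to 725 CPM in Tumor, whereas H2-T23 is at 17.9 to 21.2 CPM in Lyso and 9.41 to 36.9 CPM in Tumor.

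H2-T23 (chromosome 17, 36029773 to 36032855) encodes the nonclassical chain Qa-1, which presents leader peptides of other class I chains to the receptor pair CD94 and NKG2A on natural killer and CD8+ T cells. It was close to absent in WT, with 1, 1 and 19 counts in WT 1, WT 2 and WT 3, or 0.565, 0.422 and 1.12 CPM. Lyso held 21.2, 18.6 and 17.9 CPM, and Tumor 1, Tumor 3 and Tumor 4 held 9.41, 18.1 and 36.9 CPM. No library of Lyso or Tumor overlapped WT, and the Lyso values lay inside the range of Tumor. H2-T23 was higher than in WT by 4.34 ± 0.75 on the log2 scale in Lyso (edgeR, adjusted p = 0.00538) and by 4.51 ± 0.76 in Tumor (adjusted p = 0.0013). Tumor minus Lyso was 0.18 ± 0.51 (adjusted p = 0.841), an estimate that turned to -0.46 without Tumor 4. With WT 3 as the only WT library, the one as deep as Lyso, Lyso was higher by 4.08 but no longer called (adjusted p = 0.0721), in a fit where WT has 1 library and its spread is taken from the other groups.

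H2-T22 (chromosome 17, 36037128 to 36042747) encodes a nonclassical chain that binds no peptide and is recognised by γδ T cells. Its libraries read 17.0, 13.5 and 30.3 CPM in WT, 45.9, 55.2 and 46.3 CPM in Lyso, and 18.8, 34.8 and 71.9 CPM in Tumor 1, Tumor 3 and Tumor 4. All Lyso libraries lay above WT, and Tumor 1 lay within WT. No difference was called, with 1.17 ± 0.42 between Lyso and WT (edgeR, adjusted p = 0.15), 0.95 ± 0.43 between Tumor and WT (adjusted p = 0.146) and -0.22 ± 0.40 between Tumor and Lyso (adjusted p = 0.74). Of its transcript windows of 75 bases, 18.5% also occur in genes elsewhere, mainly H2-T10, and reads that lie inside them have several matches and were not counted. The antisense gene A930015D03Rik covers 29.4% of the exon bases of H2-T22 and held at most 19 counts in a library, and reads of this pair cannot be told apart, since the strand setting of the counting is not given in the sources used here.

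H2-Q4 (chromosome 17, 35379617 to 35385290), a nonclassical gene of the Q region, was at 15.3, 9.70 and 10.8 CPM in WT, at 29.3, 35.3 and 33.2 CPM in Lyso, and at 51.9, 73.9 and 145.7 CPM in Tumor 1, Tumor 3 and Tumor 4. The 3 groups formed separate steps without overlap. Tumor exceeded Lyso by 1.48 ± 0.38 on the log2 scale (edgeR, adjusted p = 0.0125) and WT by 2.98 ± 0.44 (adjusted p = 0.000518). The difference between Lyso and WT was of the same size as that between Tumor and Lyso, 1.498 ± 0.43, but missed the threshold (adjusted p = 0.0701). The call of Tumor over Lyso was lost without Tumor 4 or without Lyso 1. The antisense gene Gm11131 shares 19.1% of the exon bases of H2-Q4 and was likewise highest in Tumor, at 18.2 to 81.3 CPM against 3.37 to 7.35 CPM in WT. Reads of this pair cannot be told apart either, and 7.29% of the windows of H2-Q4 occur in genes elsewhere.

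H2-Q6 and H2-Q7, neighbours on chromosome 17 (35424850 to 35430055 and 35439155 to 35443773), encode Qa-2 class molecules, of which H2-Q7 gives a form anchored by a lipid. Both were at 0 counts in all WT libraries, and H2-Q7 was at 0 in all Relapsed lines as well. H2-Q6 held 3, 15 and 10 counts in Lyso and 26, 40 and 55 counts in Tumor 1, Tumor 3 and Tumor 4, or 0.282 to 1.40 CPM and 8.04 to 12.9 CPM. H2-Q7 held 13, 15 and 9 counts in Lyso and 13, 31 and 27 counts in Tumor, or 0.728 to 1.40 CPM and 4.22 to 6.34 CPM. The Tumor libraries lay above Lyso for both. Lyso lay above WT 3, while 3 counts stand for 1.70 and 1.27 CPM in WT 1 and WT 2, so that a level like that of Lyso was not detectable there. Against a floor of 3 counts over the WT group, H2-Q6 was at least 5.84-fold higher in Lyso and at least 69.2-fold higher in Tumor, and H2-Q7 at least 7.72-fold and 40.6-fold higher. These limits rest on the depth of WT 3, and without it, a step added after the values were seen, they fell to 1.15-fold and 13.6-fold for H2-Q6 and to 1.51-fold and 7.96-fold for H2-Q7. Tumor exceeded Lyso by 3.54 ± 0.51 for H2-Q6 (edgeR, adjusted p = 0.000598) and by 2.34 ± 0.38 for H2-Q7 (adjusted p = 0.00219). The rise of H2-Q6 in Lyso over WT was close to the threshold (adjusted p = 0.0464), and it was lost without WT 2, WT 3, Lyso 2 or Lyso 3, and also with WT 3 as the only WT library, where the gene is at 0 as well. That of H2-Q7 (adjusted p = 0.0102) was lost without WT 3. Of the windows of H2-Q6 and H2-Q7, 21.1% and 17.0% also occur in genes elsewhere, so reads that lie inside them are missing from their levels. Floors and intervals given here cover counting error only.

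H2-M3 (chromosome 17, 37270220 to 37274484) encodes a nonclassical chain that presents formylated peptides of bacteria and mitochondria. It had 0, 1 and 5 counts in WT, 9, 7 and 7 counts in Lyso, and 12, 19 and 41 counts in Tumor. In CPM this was at most 0.422 in WT, 0.566 to 0.847 in Lyso and 3.82 to 9.63 in Tumor, so that the Tumor libraries stood apart. Tumor exceeded Lyso by 3.06 ± 0.76 on the log2 scale (edgeR, adjusted p = 0.0109) and WT by 4.31 ± 1.02 (adjusted p = 0.0105), and the first of these calls was lost without Tumor 4 and the other without WT 3. Lyso and WT differed by 1.25 ± 1.17 (adjusted p = 0.633).

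**Figure D2:**
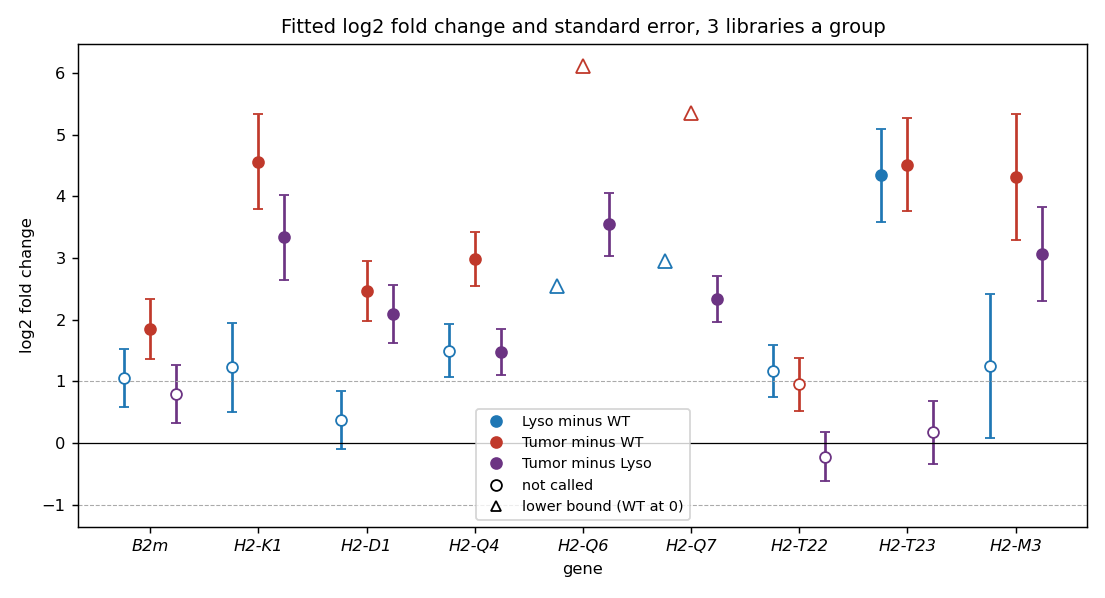
Fitted log2 fold change of the 9 genes with its standard error for Lyso minus WT, Tumor minus WT and Tumor minus Lyso; filled circles passed the threshold, open circles did not, triangles are lower bounds where WT is at 0, and dashed lines mark a log2 fold change of 1 in either direction. Tumor minus Lyso lies at 3.34 for H2-K1 and at 0.18 for H2-T23.

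The counts of called genes were read against those of all genes. Of 14924 genes tested, 8.78% were called higher and 4.14% lower in Tumor than in Lyso, and of the 9 MHC-I genes 6 were called higher and 0 lower, with a median log2 fold change of 2.09 beside 0.00 over all genes. The 3 that were not called were B2m, H2-T22 and H2-T23. Against WT, 8.56% of all genes were called higher and 2.2% lower in Tumor, and 8 of the 9 MHC-I genes were called higher and 0 lower, with a median of 4.31 beside 0.00. In Lyso, 2.43% of all genes were called higher and 0.576% lower than in WT, and 3 of the 9, H2-Q6, H2-Q7 and H2-T23, were called higher and 0 lower, with a median of 1.25 beside -0.01. DESeq2 called 6, 8 and 4 of the 9 higher and 0 lower in these comparisons, and 0 of the 9 were lower at an unadjusted p under 0.05. Tumor and Lyso share the WT libraries in the comparisons with WT. The medians were the same with H2-Q6 and H2-Q7 set to their lower bounds. The filter on low counts asked for a minimum level in as many libraries as a group holds. H2-Q6, H2-Q7 and H2-M3 met it only with their Tumor libraries, where they were highest. Their places among the genes called higher in Tumor are therefore not independent of the filter.

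Measured as the highest library over the lowest, the libraries of Tumor lay farther apart than those of Lyso for 7 of the 9 genes. H2-Q6 and H2-Q7 were the exceptions on this relative measure, though not in the SD of their CPM. Tumor 4 was the highest Tumor library for 9 of the 9 genes and Tumor 1 the lowest for 7, while Tumor 3 was lowest for H2-Q6 and H2-M3. H2-K1 differed 3.32-fold between the extreme Tumor libraries and 1.04-fold between the extreme Lyso libraries. The fibroblast markers ran in the other direction, with summed levels of 10690, 8730 and 7693 CPM in Tumor 1, Tumor 3 and Tumor 4. The myeloid markers, at 51.6, 61.5 and 76.4 CPM, the T-cell markers, at 11.03, 13.06 and 16.9 CPM, and the melanocyte markers, at 20510, 22103 and 22620 CPM, were all lowest in Tumor 1 and highest in Tumor 4, as most MHC-I genes were. Most of the T-cell sum in Tumor was Cd247 and Lck, at means of 8.07 and 4.07 CPM, and neither was called between Tumor and WT. The endothelial markers were lowest in Tumor 3, at 308, 277 and 323.5 CPM. Most of that sum was Eng, at a mean of 254 CPM in Tumor against 343 CPM in WT, so it does not follow the endothelial markers called higher in Tumor. The part of these markers in the spread was not tested. In bulk RNA, fewer cells of a type and less RNA per cell cannot be told apart.

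The make-up of the heavy chain level was compared inside each library, where depth and scaling cancel out. RNA of host cells in Tumor and of T cells in Lyso does not cancel out, and its part was not tested. The nonclassical share, the level per kilobase of exon of H2-Q4, H2-Q6, H2-Q7, H2-T22, H2-T23 and H2-M3 over that of all 8 heavy chain genes, was 15.6%, 20.03% and 17.9% in WT 1, WT 2 and WT 3. It was 31.2%, 34.4% and 30.8% in Lyso and 16.2%, 13.3% and 13.6% in Tumor 1, Tumor 3 and Tumor 4. Lyso stood above all other libraries, and Tumor overlapped WT. The difference of 14.2 percentage points between Lyso and WT and that of -17.8 between Tumor and Lyso each had p = 0.1 in a two-sided exact permutation test, the smallest p that 3 libraries against 3 allow, so neither could pass 0.05. Over the counts without the division by length, the share was 33.8%, 37.1% and 33.2% in Lyso, with 95% Wilson intervals from 31.7% to 38.8%, and 15.8%, 13.4% and 13.6% in Tumor, with intervals from 12.5% to 17.5%.

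Inside this share, H2-T23, H2-T22 and H2-Q4 were each highest in the Lyso libraries. H2-T23 made up 5.69% to 6.91% of the heavy chain level in Lyso, 1.44% to 1.67% in Tumor and 0.277% to 0.508% in WT. H2-T22 made up 12.4% to 14.8% in Lyso, 7.03% to 11.7% in WT and 2.44% to 2.75% in Tumor. H2-Q4 was at 10.6% to 12.4% in Lyso, 7.15% to 8.86% in Tumor and 5.48% to 9.21% in WT. Among the classical genes the balance moved towards H2-K1 in Tumor, and this ratio was chosen after its values were seen. The level per kilobase of H2-D1 was 4.34, 9.77 and 9.84 times that of H2-K1 in WT 1, WT 2 and WT 3, between 3.79 and 4.07 times in Lyso, and between 1.54 and 1.73 times in Tumor.

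In the whole RNA of the libraries, with any RNA of other cells included, the heavy chains outran B2m in Tumor but not in Lyso. The summed level per kilobase of the 8 heavy chains was 0.181, 0.150 and 0.133 of that of B2m in the WT libraries, 0.116, 0.135 and 0.127 in Lyso, and 0.273, 0.301 and 0.330 in Tumor 1, Tumor 3 and Tumor 4. All Tumor libraries lay above all others, and Lyso overlapped WT. On the log2 scale Tumor exceeded Lyso by 1.26 and WT by 0.97 (two-sided exact permutation test, p = 0.1 each, the smallest possible), and Lyso minus WT was -0.29 (p = 0.2).

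**Figure D3:**
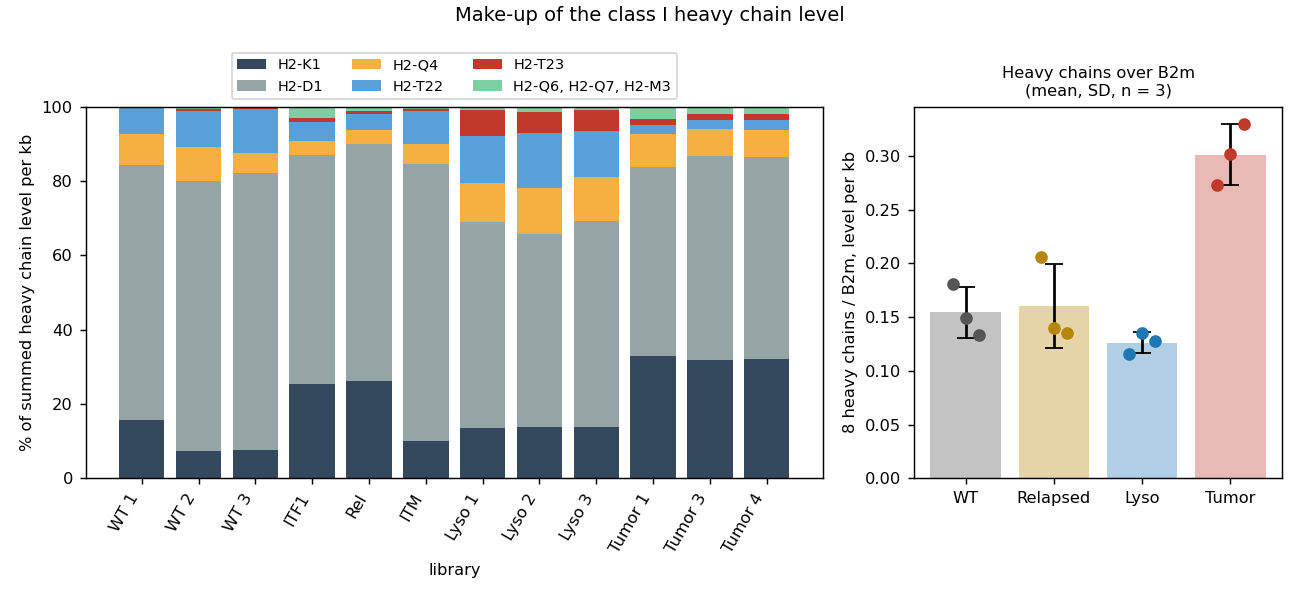
Left, share of each heavy chain gene in the summed level per kilobase of the 8 heavy chain genes, in percent, as stacked bars for the 12 libraries; right, the summed heavy chain level over that of B2m, with bars for the mean, lines for the SD and points for the 3 libraries of a group. H2-T23 takes 5.69% to 6.91% in Lyso and 1.44% to 1.67% in Tumor, and the ratio to B2m reaches 0.273 to 0.330 in Tumor.

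The Relapsed lines addressed whether cells from relapsed tumors keep a different level of MHC-I once they are back in culture. No MHC-I gene was called between Relapsed and WT by edgeR, where 0.0134% of all genes were called higher and 0.0268% lower. DESeq2 also called 0, and 2 of the 9, H2-K1 and H2-M3, had an unadjusted p under 0.05. The lines differed among themselves. H2-K1 was at 79.8 CPM in ITF1, 136 CPM in Rel and 11.97 CPM in ITM, and H2-M3 at 4.76, 3.14 and 0.299 CPM in the same order. H2-T23 was at 3.07, 3.74 and 0.419 CPM, and B2m at 446, 1089 and 256 CPM. H2-D1 was at 169, 291 and 77.4 CPM. ITF1 and Rel exceeded all WT libraries for H2-K1, H2-D1, H2-T23 and H2-M3, whereas ITM lay within WT for H2-K1, H2-D1 and H2-M3 and just below it for H2-T23. ITM was the lowest line for 7 of the 8 genes that had any count in the lines. The fitted differences were 2.03 ± 0.72 for H2-K1 (adjusted p = 0.339) and 3.20 ± 1.03 for H2-M3 (adjusted p = 0.304), and both were called when ITM was left out (2.55 and 3.74).

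For H2-Q4 and H2-T22, ITF1 lay within WT. H2-Q4 was at 10.4, 17.9 and 5.80 CPM and H2-T22 at 18.9, 25.6 and 12.2 CPM in ITF1, Rel and ITM, and ITM lay below WT for both. H2-Q6 had 0, 1 and 3 counts. Per kilobase, H2-D1 stood at 2.42 and 2.44 times H2-K1 in ITF1 and Rel and at 7.37 times in ITM, so that the first 2 lines lay below the WT range and ITM within it. The nonclassical share was 13.1%, 10.1% and 15.5%, below all WT libraries (difference -4.98 percentage points, exact permutation p = 0.1). The gap between ITM and WT 1 was small, and over counts not divided by length ITM (17.5%) overlapped WT 1 (17.2%). In the lines the ratio to B2m of 0.206, 0.140 and 0.136 overlapped WT.

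Lyso and Relapsed were of like depth. Here 3.21% of all genes were called higher and 1.04% lower in Lyso, and 4 of the 9 MHC-I genes, H2-Q4, H2-Q6, H2-Q7 and H2-T23, were called higher and 0 lower. DESeq2 called 5 higher and 0 lower, and 1, H2-M3, was lower at an unadjusted p under 0.05. H2-T23 was higher by 3.01 ± 0.56 on the log2 scale (edgeR, adjusted p = 0.00621) and H2-Q4 by 1.52 ± 0.39 (adjusted p = 0.0313). H2-Q7 was at least 16.3-fold higher, counted against the floor of 3 counts over the Relapsed group, and at least 10.9-fold without Rel and 10.2-fold without ITM. The classical genes went below Relapsed in their estimates, -0.80 ± 0.64 for H2-K1 (adjusted p = 0.51) and -0.25 ± 0.46 for H2-D1 (adjusted p = 0.814), and neither was called. Only H2-T23 and H2-Q7 were called with every single library left out in turn.

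Between Tumor and Relapsed, 8.36% of all genes were called higher and 2.31% lower. Of the 9 MHC-I genes, 6 were called higher and 0 lower by edgeR, and 7 and 0 by DESeq2. At an unadjusted p under 0.05, 0 were lower. H2-Q6 and H2-Q7 are among the 6 and met the filter on low counts only with their Tumor libraries. Their part in this count is therefore not independent of the filter. H2-K1 was 5.79-fold and H2-D1 3.60-fold higher in Tumor (log2 differences of 2.53 ± 0.66, adjusted p = 0.017, and 1.85 ± 0.47, adjusted p = 0.0149), and both calls were lost without Tumor 4 and when only these 2 groups were fitted. H2-T23 was 9.10-fold higher (3.19 ± 0.58, adjusted p = 0.00175), H2-Q4 8.01-fold (3.001 ± 0.40, adjusted p = 0.000183) and H2-Q7 at least 85.9-fold (57.2-fold without Rel and 53.8-fold without ITM). B2m, H2-T22 and H2-M3 were not called, at 1.10 ± 0.47 (adjusted p = 0.124), 1.16 ± 0.41 (adjusted p = 0.0659) and 1.11 ± 0.66 (adjusted p = 0.267).

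The regulators of the MHC-I genes were set beside the chains. Of 13 regulators, 3 were called higher in Lyso than in WT and 2 in Tumor, and 4 were called lower in Tumor than in Lyso, where 2.43%, 8.56% and 4.14% of all genes were called in these directions. The count of 2 for Tumor was thus near that background. DESeq2 called 4 higher in Lyso and 2 in Tumor than in WT, and 3 lower in Tumor than in Lyso. Irf1, the interferon-induced activator, was at 4.52 to 17.8 CPM in WT, 657 to 757 CPM in Lyso and 35.4 to 173 CPM in Tumor. Nlrc5, the transactivator of class I promoters, was at 0.565 to 4.48 CPM in WT, 164 to 185 CPM in Lyso and 20.1, 43.6 and 91.4 CPM in Tumor 1, Tumor 3 and Tumor 4. The Lyso libraries were thus highest for both regulators, while H2-K1 and H2-D1 were highest in Tumor. Tumor minus Lyso was -2.98 ± 0.48 on the log2 scale for Irf1 (edgeR, adjusted p = 0.00067) and -1.74 ± 0.48 for Nlrc5 (adjusted p = 0.0195). Irf2, another interferon regulatory factor, was also called lower in Tumor (-1.61 ± 0.17, adjusted p = 2.91e-05). The RFX and NF-Y subunits, Creb1, Rela and Nfkb1 were not called in Lyso or Tumor against WT. The RFX subunit gene Rfxank was lower in Tumor and missed only the fold threshold. Its log2 fold change was -0.47 ± 0.11 against WT (edgeR, adjusted p = 0.011) and -0.69 ± 0.11 against Lyso (adjusted p = 0.000636).

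**Figure D4:**
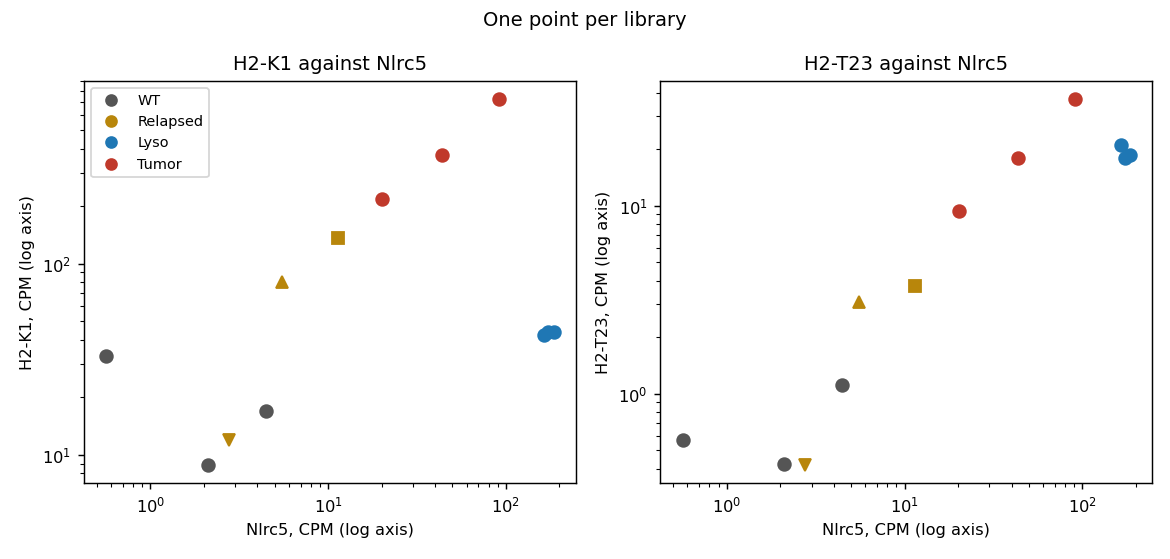
Level of H2-K1 (left) and H2-T23 (right) against that of Nlrc5, all in CPM on log axes, with 1 point per library and a triangle for ITF1, a square for Rel and an inverted triangle for ITM. The Lyso libraries lie farthest to the right, at 164 to 185 CPM of Nlrc5, but at 42.4 to 44.1 CPM of H2-K1, below each Tumor library.

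The machinery that supplies and loads peptides was compared in the same way. Of its 13 genes, 10 were called higher in Lyso than in WT, with a median log2 fold change of 2.69, and 8 in Tumor, with a median of 1.11. Of all genes, 2.43% were called higher in Lyso and 8.56% in Tumor than in WT, and 8.78% higher and 4.14% lower in Tumor than in Lyso. Their medians in these comparisons lay between -0.005 and 0.004. Between Tumor and Lyso 0 were called higher and 5 lower by edgeR, with a median of -0.58, whereas DESeq2 called 0 higher and 4 lower, and 3 were higher and 6 lower at an unadjusted p under 0.05. Tap1, a subunit of the peptide transporter, was at 262 to 300 CPM in Lyso, 33.1 to 169 CPM in Tumor and 4.64 to 16.1 CPM in WT. Its log2 fold change was 4.70 ± 0.64 in Lyso and 2.99 ± 0.62 in Tumor against WT (adjusted p = 0.00111 and 0.00485), and -1.71 ± 0.54 in Tumor against Lyso (adjusted p = 0.0336). Tapbpl, Tapbp, Psmb10 and Erap1, which edit, load, cut or trim peptides, were the others called lower in Tumor, at -2.50 ± 0.29, -1.74 ± 0.44, -1.87 ± 0.47 and -1.09 ± 0.32. Psmb8, an immunoproteasome subunit, went the other way in its estimate, 1.85 ± 0.64 (adjusted p = 0.051). Its Tumor libraries ran from 13.95 to 128 CPM and overlapped the 16.1 to 17.5 CPM of Lyso. Of 7 genes for interferon receptors and their kinases, 0 were called in Lyso or Tumor against WT, by edgeR and by DESeq2. For so few genes, a count of 0 is near the shares of all genes called. In each comparison, 2 were higher at an unadjusted p under 0.05. These had an adjusted p under 0.05 too and missed only the fold threshold. They were Ifnar2 and Jak2 in Lyso (0.84 ± 0.19 and 0.65 ± 0.14 on the log2 scale, adjusted p = 0.0247 and 0.0178) and Ifngr1 and Jak2 in Tumor (0.58 ± 0.17 and 0.45 ± 0.14, adjusted p = 0.0313 and 0.0412).

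Other class I genes mostly held few counts. Reads with several matches were not counted, so near copies can be understated and few counts do not show that a gene is silent. Of the windows of H2-T22, 15.7% occur in H2-T10, and of those of H2-Q7, 8.88% occur in H2-Q10 and 5.32% in H2-Q5. Of 24 further genes with a class I name, 4 passed the filter on low counts, with H2-Ke6 left out because it shares the prefix but is not a class I gene. H2-T10, a near copy of H2-T22, had 0, 0 and 1 counts in WT, 3, 8 and 9 in Lyso and 2, 11 and 21 in Tumor, and was called higher in Tumor than in Lyso (log2 fold change 2.17 ± 0.74, edgeR, adjusted p = 0.0477). H2-Q5 had 0 counts in WT, 2, 1 and 3 in Lyso and 4, 6 and 7 in Tumor, and was called higher in Tumor (2.87 ± 0.54 over Lyso, adjusted p = 0.00516). H2-T10 and H2-Q5 also met the filter only with their Tumor libraries. H2-T24 was called lower in Tumor than in Lyso (-1.63 ± 0.56, adjusted p = 0.0494), with 26, 27 and 23 counts in Lyso and 2, 6 and 1 counts in Tumor, and DESeq2 did not call it. H2-K2 was not called. The Q gene thus lay with H2-Q6 and H2-Q7 in being highest in Tumor, and H2-T24 was the one class I gene called lower there than in Lyso.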

How the data were processed

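The authors trimmed reads with fastp 0.19.6, aligned them to GRCm38 with STAR 2.7.1a and deposited raw counts per gene for 12 libraries, without normalization. They name DESeq2 1.24.0 for the analysis. Reads with several matches were left out by the counting, which lowers genes with near copies, and the strand setting and annotation release are not given in the sources used here. Symbols and positions were taken from GENCODE vM21 (GRCm38), which matched 54165 of 54232 identifiers, and upstream windows from RefSeq. Between 36.17% and 39.36% of reads fell on genes.

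From the counts, 1 fit of all 12 libraries was made with edgeR 4.0.16 in R 4.3.3 (TMM, filterByExpr, quasi-likelihood test, Benjamini-Hochberg adjustment over 14924 genes) and 6 comparisons were drawn from it. CPM use the effective library size. Standard errors were derived from the F statistic (log2 fold change divided by its root). Shares and ratios were compared by exact permutation tests (SciPy 1.17.1). The pipeline was tested on simulated data. DESeq2 1.42.0, other scalings, filters and sets of libraries were alternatives. Named are the 9 genes, and from each list up to 4 called genes with the smallest adjusted p. The genes and lists were chosen with earlier results of these data known. The Relapsed libraries are separate lines, and for the other groups nothing in the labels says that the libraries are separate cultures or animals, so their p-values may measure technical spread. Replicates of a group differed by more than sampling noise. The labels speak of Tumor 1 to 3 in the protocol and of Tumor 1, 3 and 4 in the titles. A gene counted in the list of regulators is not reported by name here.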

Additional observations from a re-analysis of the deposited data

How the results depend on the processing

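The number of MHC-I genes called higher was 0 between Relapsed and WT, 3 between Lyso and WT, 8 between Tumor and WT, 6 between Tumor and Lyso, 4 between Lyso and Relapsed and 6 between Tumor and Relapsed. With at least 10 counts required in every library compared, only 5 or 6 of the 9 were tested, and the counts were 0 for Lyso and WT, 4 for Tumor and WT, 3 for Tumor and Lyso, 1 for Lyso and Relapsed and 3 for Tumor and Relapsed. Without a filter they were 2 for Relapsed and WT and 7 for Lyso and WT, and 1 gene, H2-M3, was called lower in Lyso than in Relapsed. With WT 3 as the only WT library, an arm of 1 whose spread comes from the other groups, 1 was called between Lyso and WT. Leaving out 1 library in turn gave 0 to 2 for Relapsed and WT, 1 to 3 for Lyso and WT, 2 to 3 for Lyso and Relapsed, where 0 to 1 were lower, 7 to 9 for Tumor and WT, and 4 to 6 for Tumor and Lyso. With library size as the only scaling the median of all genes moved to -0.10 between Lyso and WT, and the 3 calls remained 3 in number. There 311 of all genes were called higher, against 362 in the main fit. For the other settings, and for the replicate block below, the share of all genes called is not given. A change in those counts can therefore not be told apart from a change over all genes.

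With the replicate block, 5 were called higher between Lyso and WT and 5 between Tumor and Lyso, and H2-T23 turned to -0.53 between Tumor and Lyso. Same-numbered libraries of WT, Lyso and Tumor did not deviate together more than others (correlations of -0.01 to 0.06, against -0.05 to 0.06 between different numbers). This check cannot exclude a shared day or batch, which the labels do not name.

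Signs turned only in differences that were not called. With WT 3 as the only WT library H2-Q4 was at 0.065 between Relapsed and WT. Leaving out 1 library in turn, the differences between Relapsed and WT ran from -0.015 (without Rel) to 1.11 for B2m, which was at 0.75 with all libraries, from -0.51 to 0.31 for H2-Q4 and from -0.49 to 0.32 for H2-T22. Those between Tumor and Lyso ran from -0.85 to 0.11 for H2-T22 and from -0.46 to 0.51 for H2-T23, and those between Lyso and Relapsed from -0.61 to 0.29 for H2-D1 and from -0.054 to 1.07 for B2m. The nonclassical share over counts not divided by length moved to -5.71 percentage points between Tumor and WT and to -20.4 between Tumor and Lyso. The causes of these shifts were not tested. In WT 1 and WT 2, 3 counts stand for 1.70 and 1.27 CPM. Levels like the Lyso means of H2-Q6, H2-Q7 and H2-M3, 0.829, 1.12 and 0.688 CPM, were therefore not detectable there, and for these WT rests on WT 3. The levels of these 3 genes in Tumor, and of H2-T23 in Lyso and Tumor, lay above these floors. H2-T23 stayed called in Lyso and in Tumor against WT when WT 3 was left out.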

Other observations

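The class I-like genes, which share the fold but not the classical role, moved little. Of 6, 5 were tested, and Azgp1 was the only one called, higher in Tumor than in WT (log2 fold change 2.67 ± 0.87, edgeR, adjusted p = 0.0487), with 36.0, 12.3 and 8.22 CPM in Tumor 1, Tumor 3 and Tumor 4 against 0.942 to 9.05 CPM in WT. In that comparison 8.56% of all genes were called higher. Its highest Tumor library was the one that was lowest for most MHC-I genes. Mr1, which presents vitamin B metabolites, was at 55.8 ± 0.585 CPM in Lyso and 30.1 ± 2.04 CPM in Tumor (SD, n = 3), a log2 fold change of -0.89 ± 0.23 that had an adjusted p of 0.0145 but was under the fold threshold. Hfe and Fcgrt were not called in any of these comparisons, and Cd1d1 lay at most at 3.28 CPM.

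Genes whose pattern over the 12 libraries was most like that of an MHC-I gene were taken by Pearson's r of log2 CPM, a description in which the groups and their depth are shared by all points. For H2-T23 these were Gbp9 (0.985), Tap2 (0.980), Slfn8 (0.978), Ifi203 (0.975) and Phf11d (0.973). For H2-K1 they were Pde8a (0.963), Cyth3 (0.961), Ptpn6 (0.958), Gm20531 (0.956) and Mir22hg (0.953). For B2m they were Mndal (0.924), Msi2 (0.923), H2-T10 (0.917), Ifi203 (0.915) and Itm2b (0.914). H2-K1 and H2-D1 had an r of 0.961 with each other, while H2-T22 had 0.511 with H2-K1 and 0.865 with H2-T23.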
